A study of Mus musculus with 4 samples.

Results

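Gata4 peaks were examined around 10 genes of the Wnt pathway, *Wnt2*, *Wnt3*, *Wnt11*, *Wnt5a*, *Dkk1*, *Sfrp1*, *Sfrp5*, *Axin2*, *Lef1* and *Fzd7*, out of 22225 protein-coding genes. A peak was taken when its list named one of these genes, which the lists do within 5 kb, or when it lay within 50 kb of the gene body on the mm9 mouse genome. This gave 61 of 20410 peaks in WT cells and 39 of 22733 peaks in DKO cells.

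The peaks come from chromatin immunoprecipitation with a mixture of 3 antibodies to Gata4, followed by sequencing, with 4 libraries and 1 library per condition. All cells descend from the mouse ES line J1, of 129 background, and each clone stably carries Gata4GR, in which Gata4 is fused to the hormone-binding part of the human glucocorticoid receptor, so that dexamethasone (Dex) switches it on; the CAG promoter drives it in all cells. The WT Flk1(+) library (clone J1G4.2 in its label, a name the study's text gives in a longer form) and the DKO Flk1(+) library (clone 16G4.3, *Dnmt3a*-/- *Dnmt3b*-/-, without the enzymes that set new methyl groups on CpG dinucleotides) are mesoderm cells grown on OP9 stroma to day 4.5, given 100 nM Dex for 3 hours and sorted by magnet for the surface receptor Flk1. The WT ES and DKO ES libraries are undifferentiated cells of the same genotypes without Dex, and each served as the background of its own Flk1(+) library. Each Flk1(+) genotype is 1 clone, so that genotype and clone cannot be told apart, and a difference between lists has no replicate check. The lists give no read counts, so library depth cannot be read from them; by the study's methods the DKO Flk1(+) library had more mapped reads than the WT one, and no count or height below was adjusted for this. They hold no measure of expression, so neither the mesoderm label nor the activity of any gene could be checked from them.

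Wnt ligands are secreted lipid-modified proteins that bind Frizzled receptors. In the canonical branch, binding stops the destruction complex, of which Axin proteins are the scaffold, so that β-catenin builds up and turns on target genes together with Tcf/Lef factors; other ligands signal to the cytoskeleton without β-catenin. In the embryo, canonical signaling induces the primitive streak and mesoderm, and its later inhibition in the anterior mesoderm favors the heart, where Gata4 is a central regulator.

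Several terms recur. The height of a peak is the top of the authors' read profile in the Flk1(+) library, the ES height is the background profile at that place, and the enrichment is their ratio, with an ES height below 1 taken as 1. No height in either list was below 5 and no enrichment below 3. The rank orders the peaks of a list by q-value, with 1 the best. A peak was called shared when the other list had a peak within 500 bp, the distance up to which the sequence windows deposited with the peaks, of 250 bp to each side, still overlap. Each window was searched on both strands for WGATAA, where W is A or T, a sequence that Gata factors bind, and its CpGs were counted. Whether heights are scaled for depth is not stated, so a ratio of DKO to WT height is to be read against its median over all shared WT peaks, which was 0.823.

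The WT list had more peaks near these genes than the DKO list, although it is the shorter list. A WT peak lay within 5 kb of 9 of the 10 genes, against 39.4% of all protein-coding genes, and a DKO peak lay within 5 kb of 7, against 49.1%. Within 50 kb the counts were 9 of 10 for WT, against 67.1% of genes, and 10 of 10 for DKO, against 70.4%. The median number of peaks within 50 kb was 7 per member and 1 per gene overall in WT, and 3.5 per member and 2 per gene overall in DKO. The members had a median length of 26566 bp and all genes one of 15525 bp, and the comparison was not adjusted for length or for the density of neighbors. The members were also chosen with earlier results of these data known, so these counts describe the chosen genes and are no test of them. In WT the members ranged from 0 peaks at *Sfrp5* to 11 at *Sfrp1*, a number reached by 0.72% of genes, and in DKO from 1 at *Wnt5a* and at *Sfrp5* to 7 at *Wnt3*, reached by 12.4%. WT had more peaks than DKO at 5 genes (*Wnt2*, *Wnt11*, *Fzd7*, *Sfrp1* and *Axin2*), the numbers were equal at 3 (*Wnt3*, *Wnt5a* and *Lef1*), and DKO had 1 more at *Dkk1* and at *Sfrp5*. Of all protein-coding genes WT had more at 19.6%, DKO at 45.7%, and the numbers were equal at 34.8%, including the 22.5% without a peak in either list.

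**Figure D1:**
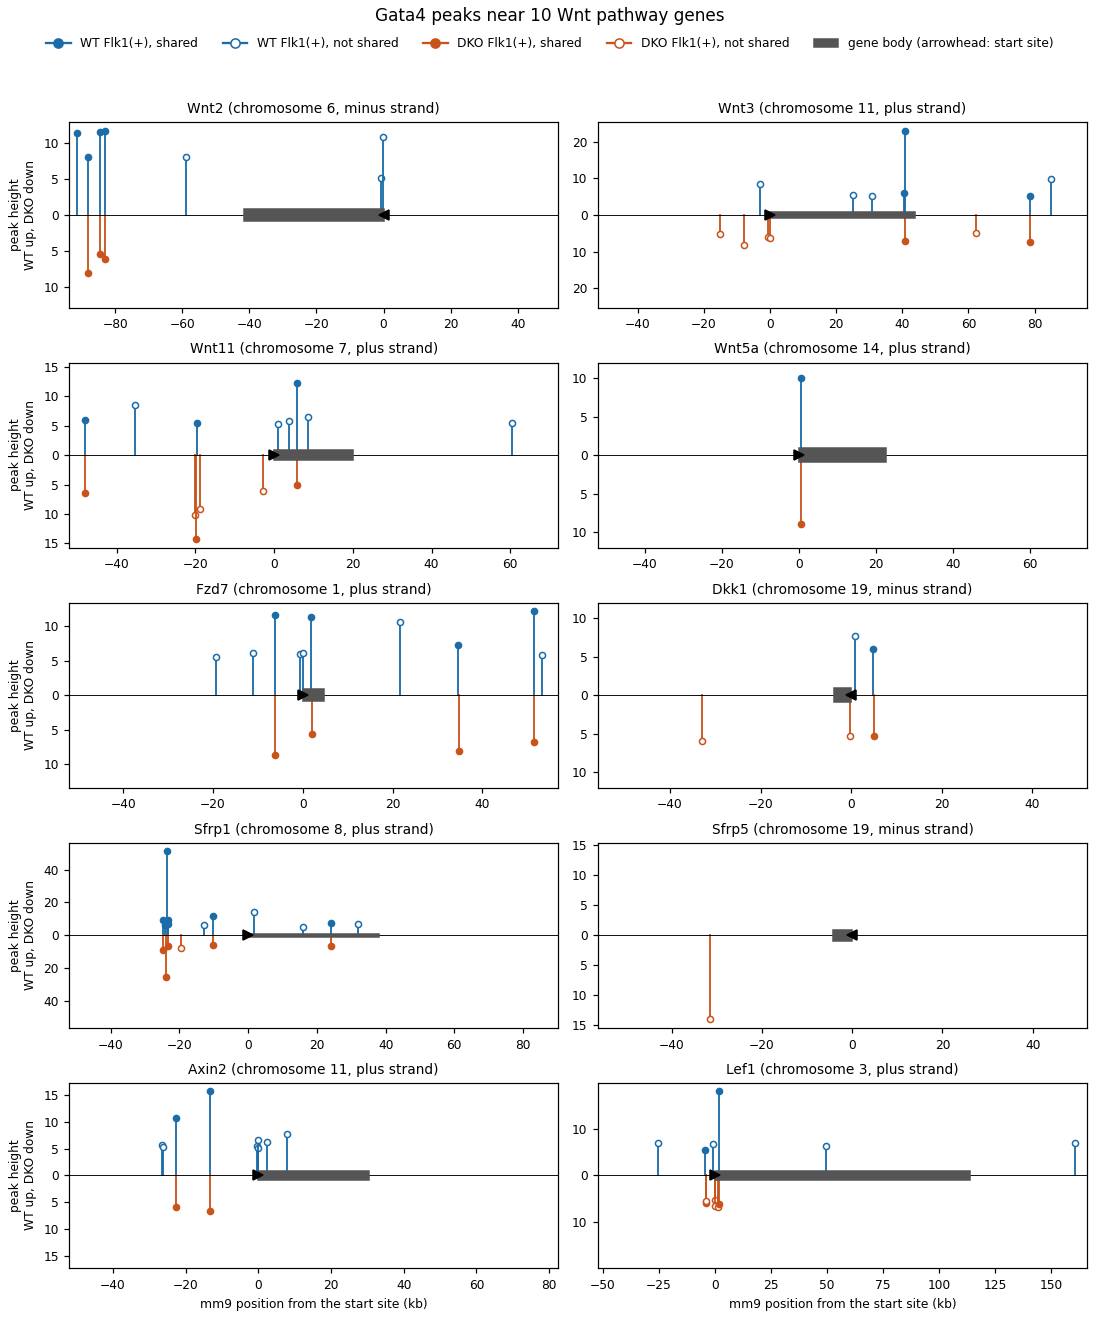
Positions and heights of the Gata4 peaks near each gene. The horizontal axis is the mm9 distance from the annotated start site in kb, and vertical lines give peak heights, WT Flk1(+) upward and DKO Flk1(+) downward, with filled circles for shared and open circles for unshared peaks. The highest line stands upstream of *Sfrp1*, at 51.1 in WT and 25.5 in DKO.

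Among the peaks near the 10 genes, 27 of the 61 WT peaks were shared, which is 44.3% (95% Wilson interval 32.5% to 56.7%), against 45.6% of all WT peaks. Of the 39 DKO peaks 23 were shared, which is 59.0% (43.4% to 72.9%), against 45.1% of all DKO peaks. These intervals and those below cover counting error within a list only. They treat the peaks as independent, although peaks of the same gene can lie close together with overlapping windows, so they may be too narrow. Over the 27 shared WT peaks the median ratio of DKO to WT height was 0.887, with a range from 0.31 to 3.97, against 0.823 over all 9305 shared WT peaks. The DKO height was the higher one in 9 of the 27, or 33.3%, against 30.7% overall. In these pairs 3 of the 24 DKO peaks were the partner of more than 1 WT peak, and the ratio of 3.97 set a small WT peak against the *Sfrp1* DKO peak that also lay 18 bp from the highest WT peak. With each DKO peak paired once, with its nearest WT peak, a choice made after the data had been seen, the median was 0.712, with a range from 0.31 to 2.61, against 0.807 over the whole list. The median near the genes was thus above that of the list with the first pairing and below it with the second. The median height was 10.0 for the shared and 6.22 for the unshared WT peaks near the genes, and 6.61 and 6.15 in DKO. The corresponding medians over the whole lists were 10.1 and 6.69 in WT and 7.82 and 6.4 in DKO.

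WGATAA was present in 42 of the 61 WT windows, or 68.9% (56.4% to 79.1%), against 61.9% of all WT windows. It was present in 22 of the 39 DKO windows, or 56.4% (41.0% to 70.7%), against 38.1% of all DKO windows. The DKO share depended on the distance allowed: within 20 kb of a gene it was 40%, against 33% of all DKO peaks that lie as near to a protein-coding gene. Near the genes 18 of the 23 shared DKO peaks held it and 4 of the 16 unshared ones; over the whole DKO list the shares were 47.5% and 30.3%. In WT it was found in 21 of the 27 shared and 21 of the 34 unshared peaks, while over the whole WT list the shares were 52.8% and 69.5%. The difference between shared and unshared member peaks was not tested.

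The windows differed in CpGs as well. The median was 8 CpGs per window in WT near the genes and 8 over the WT list, and 9 in DKO near the genes against 21 over the DKO list. Shared member peaks had a median of 7 in both lists, and the unshared ones had 8.5 in WT and 26.5 in DKO. Over the whole lists the shared and unshared medians were 13 and 6 in WT and 20 and 21 in DKO. The DKO median depended on the distance allowed, and was 21 when only peaks within 20 kb of a gene were taken, against 26 over all DKO peaks as near to a protein-coding gene.

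**Figure D2:**
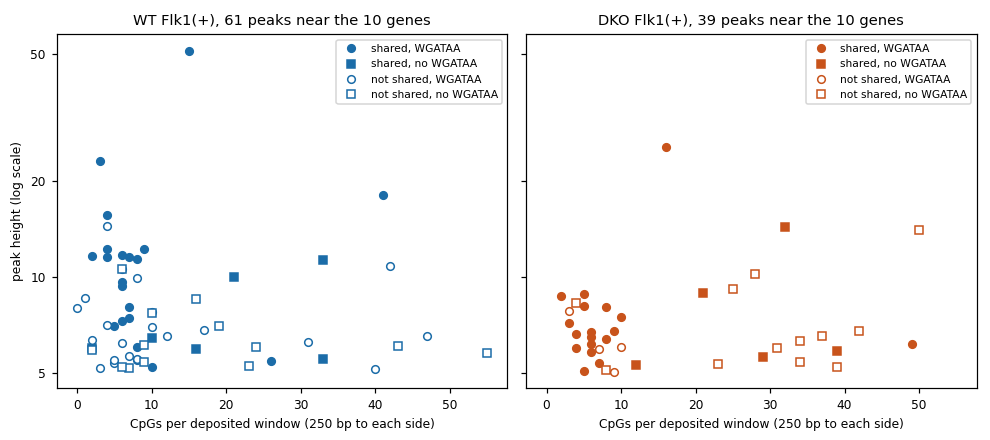
Heights of the member peaks on a log axis against the CpGs in their deposited windows, WT Flk1(+) on the left and DKO Flk1(+) on the right. Filled symbols are shared and open symbols unshared, and circles hold WGATAA while squares do not. Unshared DKO peaks are mostly squares, 12 of 16, and spread from 3 to 50 CpGs.

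A second sequence, CTTTGAW, which Tcf/Lef factors bind, was looked for because some Wnt pathway genes are themselves β-catenin targets; it was added after the data had been seen. It was present in 17 of the 61 WT windows, or 27.9% (18.2% to 40.2%), against 17.3% of all WT windows, and in 5 of the 39 DKO windows, or 12.8% (5.60% to 26.7%), against 11.9%. With a match that lies in 2 windows counted once, a choice also made afterward, 16 of 60 WT windows had it, or 26.7% (17.1% to 39%), against 16.9% of the list counted in the same way. The WT matches were uneven over the genes: 4 of the 17 windows were at the 5 peaks within 5 kb of *Axin2*, and others lay farther upstream of it. The share was not recomputed without this gene. The share near the genes was not tested against that of the list. Both sequences stood in 12 WT windows, or 19.7% (11.6% to 31.3%), against 13.0% of the list, and in 3 DKO windows, or 7.69%, against 6.63%. A match describes these letters and is not evidence that a factor sits there.

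By position, 11 WT peaks lay within 1 kb of the start of a member, at 7 genes, and 6 DKO peaks, at 4 genes, with *Wnt5a*, *Dkk1* and *Lef1* in both lists. Of all protein-coding genes, 21.8% had a start-site peak in WT, 34.5% in DKO and 17.1% in both. Counting the starts of neighboring genes too, 13 WT and 7 DKO member peaks lay within 1 kb of a protein-coding start, which is 21.3% and 17.9%, against 25% of all WT and 45.3% of all DKO peaks. The start-site peaks of the members had heights from 5.12 to 10.8 in WT, median 6.06, and from 5.2 to 8.91 in DKO, median 6.13. They had a median of 23 CpGs in WT and 32.5 in DKO, and WGATAA was present in 5 of the 11 and in 0 of the 6. The *Axin2* windows at 162 and 15 bp upstream both count among the 5 and hold the same match. For comparison, all peaks within 1 kb of any protein-coding start had median heights of 8.5 and 7.59 and medians of 36 and 38 CpGs, and 21.2% of them in WT and 14.1% in DKO held WGATAA. From 5 to 50 kb away lay 31 WT peaks, of which 18 were shared and 26 held the motif, with a median of 6 CpGs, and 24 DKO peaks, of which 16 were shared and 17 held it, with a median of 7.5. Of all peaks at that distance from at least 1 protein-coding gene, 52% in WT were shared and 53.7% held the motif, with a median of 10 CpGs, and in DKO 44% and 31.9%, with a median of 26. This comparison set is not limited to peaks away from other starts. It also takes start-site peaks of neighboring genes, so its CpG and motif values are not those of distal peaks alone. For 5 of the 31 WT and 4 of the 24 DKO member peaks the nearest protein-coding start belonged to another gene.

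The ligands come first. *Wnt2*, a canonical ligand of the early heart region and later of the lung and placenta, lies on the minus strand of chromosome 6 from 17938940 to 17980585. WT had 7 peaks and DKO 3, and the lists parted at the promoter. WT had a peak at 17980469, 116 bp inside the gene in its first 5′ UTR exon, with a height of 10.8 against 2.73 in ES cells, 42 CpGs and 1 WGATAA. A second WT peak, of height 5.19, lay at 17979962 in intron 1. The nearest DKO peak was 41292 bp from the gene. The shared peaks of *Wnt2* formed a group beyond its 3′ end, near or inside *St7*. At 17897645 the WT height was 11.7 (ES 1.55), and 3 bp away the DKO height was 6.17 (ES 1.46). At 17896024 WT had 11.5 (ES 1.9), and 6 bp away DKO had 5.38 (ES 0.888). At 17892473, in intron 15 of *St7*, the heights were alike, 8.01 in WT (ES 2.47) and 8.04 in DKO (ES 1), while the ranks were 18804 and 3097. The remaining one, a WT peak at 17889165 with a height of 11.4, was matched by a DKO peak of height 19 at 17888848, 317 bp away and just beyond the 50 kb limit. The windows of these 4 WT peaks held from 6 to 8 CpGs, and each held WGATAA. A further WT peak at 17921652, with a height of 8 and 0 CpGs, was unshared, with the nearest DKO peak 24004 bp away. The 61 bases around 3 of the shared WT peaks follow, read from mm9, because the motif lies near their center. Capitals mark WGATAA or its reverse complement TTATCW, and only the first of these stretches lies inside *St7*.
Wnt2 WT peak, chr6:17892443-17892503, plus strand: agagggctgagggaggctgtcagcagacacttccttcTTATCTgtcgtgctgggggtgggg
Wnt2 WT peak, chr6:17895994-17896054, plus strand: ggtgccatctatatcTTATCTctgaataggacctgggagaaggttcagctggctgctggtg
Wnt2 WT peak, chr6:17897615-17897675, plus strand: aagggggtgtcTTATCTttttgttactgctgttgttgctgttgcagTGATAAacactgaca

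*Wnt3*, the ligand required for the primitive streak, lies on chromosome 11 from 103635464 to 103679271 on the plus strand, and each list had 7 peaks near it. Its highest peak lay in intron 4, 40844 bp from the start at 103676308, with a WT height of 23 against 1.24 in ES cells, an enrichment of 18.5 and rank 222. DKO had a peak 4 bp away with a height of 7.15 against 0.58 and rank 4783, so that the ratio of heights was 0.31, the lowest among the shared pairs. The WT window held 2 WGATAA and 3 CpGs. A smaller WT peak just before it, at 103676030, had a height of 5.97. At the promoter the lists parted the other way from *Wnt2*. DKO had peaks 682 bp upstream of the start, with a height of 5.99 (ES 1.3) and 31 CpGs, and 72 bp inside the first exon, with a height of 6.28 (ES 1.17) and 34 CpGs, and WT had none within 1 kb. The nearest WT peak, 3055 bp upstream, had a height of 8.54 and 16 CpGs. None of these 3 windows held WGATAA. DKO had 2 more upstream peaks without the motif, at 103620293, nearer to the start of *Wnt9b*, and at 103627482, with heights of 5.09 and 8.26. WT had 2 peaks in intron 1, of heights 5.48 and 5.2, that DKO lacked. Past the 3′ end, inside *Nsf*, a pair of peaks 12 bp apart at 103714093 had a WT height of 5.23 and a DKO height of 7.46, and unshared peaks lay at 103697833 in DKO (5.03) and at 103720302 in WT (9.9). The sequence at the intron 4 peak is given because it carries the best rank of the WT member peaks, with capitals as before.
Wnt3 WT peak, chr11:103676278-103676338, plus strand: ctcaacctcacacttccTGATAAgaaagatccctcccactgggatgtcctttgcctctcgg

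*Wnt11*, a ligand of the branch without β-catenin that takes part in heart development and in cell movements of gastrulation, lies on chromosome 7 from 105983622 to 106003705 on the plus strand. WT had 8 peaks and DKO 6. Inside the gene WT had 4 and DKO 1. The shared one, in intron 3 at 105989430, had a WT height of 12.2 against 2.49 in ES cells, and 33 bp away DKO had 5.06 against 0.392, a ratio of 0.414. The unshared WT peaks of the gene lay at 105984536, 914 bp from the start, at 105987402 and at 105992308, with heights of 5.24, 5.75 and 6.54. The WT list puts the peak at 105984536 outside *Wnt11*, 2819 bp from it, whereas it lies in intron 1 in the annotation used here. The window at 105987402 held 55 CpGs, the most of any member peak; the WT list puts it 47 bp from the 5′ end of *Wnt11*, whereas it lies 3780 bp from the first start in the annotation used here. About 20 kb upstream stood a CpG-rich group. DKO had peaks at 105963557, 105963760 and 105964783 with heights of 10.2, 14.3 and 9.15. Their ES heights of 2.31, 4.67 and 2.29 were above the DKO list's median of 1.58. These windows held 28, 32 and 25 CpGs and no WGATAA. WT had 1 peak there, at 105964096, with a height of 5.46 against 1.48 in ES cells, 26 CpGs and 2 WGATAA, and only the DKO peak at 105963760 lay within 500 bp of it. The other unshared DKO peak, of height 6.03, lay 2741 bp before the start. At 35264 bp upstream WT had an unshared peak of height 8.59 with 3 WGATAA and 1 CpG, and at 105935676 both lists had a peak, 6.01 in WT and 6.36 in DKO. The last WT peak, inside *Uvrag* at 106044166, had a height of 5.54 and 3 WGATAA. The far upstream shared peak is printed, since its motif lies within 30 bases of the center.
Wnt11 WT peak, chr7:105935646-105935706, plus strand: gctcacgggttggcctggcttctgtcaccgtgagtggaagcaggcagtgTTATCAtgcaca

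*Wnt5a*, the main ligand of the branch without β-catenin in the elongating body axis, lies on chromosome 14 from 29317936 to 29340633 on the plus strand. It had 1 peak in each list, 7 bp apart in the first 5′ UTR exon, at 29318591 in WT and 29318598 in DKO. The heights were 10 in WT and 8.91 in DKO, a ratio of 0.889. The ES heights were 2.97 and 1.3, so that the enrichments were 3.37 and 6.86 and the ranks 16846 and 2134. Between the lists the ES heights thus differed more than the Flk1(+) heights. Each window held 21 CpGs and no WGATAA.

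*Fzd7*, a Frizzled receptor expressed in ES cells and early germ layers, is a gene with 1 exon on chromosome 1 from 59538991 to 59543791 on the plus strand. WT had 10 peaks and DKO 4, and all 4 of the DKO peaks were shared. In the coding sequence the WT peak at 59540689 had a height of 11.3 (ES 2.28), and the DKO peak 416 bp away had 5.62 (ES 1.62); they held 33 and 29 CpGs and no WGATAA. WT had peaks 602 bp before and 69 bp after the start, of heights 6 and 6.06 with 24 and 43 CpGs, where DKO had none. The other 3 shared peaks lay outside the gene and held WGATAA. At 59532679, 6312 bp upstream, the WT height was 11.6 (ES 2.64) and the DKO height 8.68 (ES 1.39), with 2 motifs and 2 CpGs. At 59573584 in intron 1 of the neighbor *Gm973*, 476 bp from its start, the heights were 7.28 in WT (ES 1.18) and 8.12 in DKO (ES 1.07). At 59590422 in intron 2 of *Gm973* they were 12.2 in WT (ES 1.85) and 6.77 in DKO (ES 1.36). The 4 other WT peaks, at 59519565, 59527967, 59560689 and 59592295, had heights of 5.5, 6.18, 10.6 and 5.88.

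The secreted inhibitors act outside the cell. *Dkk1*, which blocks the co-receptors Lrp5 and Lrp6, lies on the minus strand of chromosome 19 from 30620353 to 30624155. A start-site peak was in both lists, but at different places 1074 bp apart. The WT peak lay 756 bp upstream at 30624911, with a height of 7.73 (ES 1.41), 10 CpGs, 2 WGATAA and 2 CTTTGAW. The DKO peak lay in coding exon 1 at 30623837, with a height of 5.33 (ES 1.55), 23 CpGs and neither motif. A shared pair 136 bp apart stood about 5 kb upstream, with heights of 5.94 in WT (ES 1.31) and 5.27 in DKO (ES 1.29). DKO had a further peak at 30591167, 29186 bp past the 3′ end, with a height of 5.95 and 2 WGATAA.

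*Sfrp1*, a secreted relative of the Frizzled receptors that binds Wnt proteins, lies on chromosome 8 from 24521974 to 24560104 on the plus strand and had the highest peak of all 10 genes in both lists. It stood 23757 bp upstream of the start at 24498217, with a WT height of 51.1 against 5.36 in WT ES cells, an enrichment of 9.53 and rank 316. In DKO the peak lay 18 bp away with a height of 25.5, an ES height of 1.48, an enrichment of 17.2 and rank 35, the best rank of any member peak. The WT height was thus the higher one and the DKO enrichment the higher one, beside an ES height that was lower in DKO. The WT window held 3 WGATAA and 15 CpGs. Flanking peaks made this a cluster: at 24497253 the heights were 9.32 in WT (ES 0.87) and 8.83 in DKO (ES 1.68), and at 24498796 they were 9.59 in WT (ES 0.818) and 6.47 in DKO (ES 1.49). The WT list held 2 more positions there, at 24497707 and 24498666, with heights of 6.43 and 7.03. Nearer to the gene a shared pair at 24511638 had heights of 11.5 in WT (ES 3.77) and 5.99 in DKO (ES 1.88).

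Within *Sfrp1* WT had 4 peaks and DKO 1. The best-ranked unshared WT peak near any of the 10 genes lay there, in intron 1 at 24523529, 1555 bp from the start, with a height of 14.4 against 0.443 in ES cells, rank 1011, 3 WGATAA and 4 CpGs. The nearest DKO peak was 11883 bp away. In intron 2 the lists shared a peak at 24546109, with heights of 7.42 in WT (ES 1.9) and 6.7 in DKO (ES 1.33), and WT alone had peaks at 24537935 (5.18) and 24553974 (7.06). Another unshared WT peak lay 12801 bp upstream, with a height of 6.1. The best-ranked unshared DKO peak near the 10 genes also belonged to *Sfrp1*, 19421 bp upstream at 24502553, with a height of 7.79 against 1.38, rank 3474, 2 WGATAA and 3 CpGs. Chromosome 8 held 6.69% of WT peaks and 9.27% of DKO peaks, and the median ES height of its peaks was 1.98 in WT, against 1.68 over the list, and 1.62 in DKO, against 1.58. Its median Flk1(+) height was 9.01 in WT, against 7.74, and 7.03 in DKO, against 6.91. The part of this in the *Sfrp1* values was not tested. Of the 5 shared WT peaks of the cluster, the 2 with WGATAA in the central 61 bases are printed, and below them the best-ranked unshared peaks of WT and DKO. The first 2 were thus chosen for the motif.
Sfrp1 WT peak, chr8:24497223-24497283, plus strand: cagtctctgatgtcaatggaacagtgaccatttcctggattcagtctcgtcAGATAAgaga
Sfrp1 WT peak, chr8:24498187-24498247, plus strand: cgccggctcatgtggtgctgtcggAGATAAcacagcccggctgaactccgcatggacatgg
Sfrp1 WT peak, chr8:24523499-24523559, plus strand: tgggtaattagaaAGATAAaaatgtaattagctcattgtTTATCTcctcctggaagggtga
Sfrp1 DKO peak, chr8:24502523-24502583, plus strand: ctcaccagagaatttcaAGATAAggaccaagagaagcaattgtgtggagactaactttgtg

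*Sfrp5*, a relative of *Sfrp1* expressed in the anterior endoderm, lies on the minus strand of chromosome 19 from 42272461 to 42276742. It was the member without a peak in the surrounding 5 kb in either list. The nearest WT peak, at 42203621, was 68840 bp away. DKO had 1 peak within 50 kb, at 42245190, 27271 bp past the 3′ end, with a height of 14 against 4.64 in ES cells, 50 CpGs and no WGATAA. That peak lies in the first 5′ UTR exon of a transcript of *Zfyve27*, 6749 bp from the first annotated start of that gene.

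Inside the cell, *Axin2*, the scaffold of the destruction complex and a widely used readout of canonical signaling, since β-catenin induces it as negative feedback, lies on chromosome 11 from 108781663 to 108812097 on the plus strand. WT had 9 peaks and DKO 2, and at the gene itself only WT had peaks. At the start they stood 473, 162 and 15 bp upstream, with heights of 5.41, 5.12 and 6.52 and 9, 40 and 47 CpGs. These start peaks were near the calling limits, with enrichments of 3.49, 4.92 and 3.14 and ranks 14400, 16565 and 19930 of 20410. Inside the gene they lay in intron 1 at 108784108 (6.26, rank 19679) and in intron 2 at 108789593 (7.67, rank 5544). CTTTGAW was present in the windows of 4 of these 5 peaks, against 17.3% of all WT windows. The windows of the peaks 162 and 15 bp upstream overlap and hold the same match, so that the 5 windows had 3 different CTTTGAW sites, and 2 different WGATAA sites in 3 windows. The nearest DKO peak was 13345 bp upstream of the gene, and there both lists met. At 108768316 the WT height was 15.6 against 1.29 in ES cells, with rank 777, and 2 bp away the DKO height was 6.61 against 2.1, with rank 21328 of 22733. At 108758998, 22665 bp upstream, the WT height was 10.6 (ES 1.91) and the DKO height 5.82 (ES 1.48), with the positions 1 bp apart. Each of these windows held 1 WGATAA and from 4 to 6 CpGs. A pair of WT peaks farther upstream, at 108755125 and 108755401, with heights of 5.66 and 5.35 and 3 and 2 WGATAA, were unshared, with the nearest DKO peak at least 3596 bp away. Both shared peaks are shown, with capitals as before.
Axin2 WT peak, chr11:108758968-108759028, plus strand: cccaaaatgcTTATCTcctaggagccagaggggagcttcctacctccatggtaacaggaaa
Axin2 WT peak, chr11:108768286-108768346, plus strand: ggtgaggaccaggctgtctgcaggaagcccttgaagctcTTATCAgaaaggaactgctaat

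*Lef1*, the factor that joins β-catenin on DNA and a marker of Wnt activity in the primitive streak, lies on chromosome 3 from 130813389 to 130927274 on the plus strand. Each list had 6 peaks. The DKO peaks gathered around the start, all within 4173 bp of it and all but 1 without WGATAA. They stood 4173, 3833 and 76 bp upstream and 152, 1243 and 1778 bp downstream of the start. Their heights ran from 5.2 to 6.76, and their windows held from 34 to 49 CpGs. The WT peaks were spread wider. The highest, in intron 1 at 130815385, 1996 bp from the start, had a height of 18 against 3.47 in ES cells, rank 3832, 41 CpGs and 1 WGATAA, and the DKO peak 218 bp from it had a height of 6.15 against 1.15, a ratio of 0.341. The other shared WT peak, 4385 bp upstream, had a height of 5.51 (ES 1.42), and its DKO partner 212 bp away had 5.84 (ES 1.07). At the start itself WT had a peak 781 bp upstream, with a height of 6.79, 17 CpGs and 1 WGATAA, and the nearest DKO peak was 705 bp from it. WT also had a peak in intron 3 at 130863007, with a height of 6.35 against 0.244 in ES cells and 2 CpGs, one 25156 bp upstream (7.03), and one in intron 1 of *Hadh* (6.98), 830 bp from the start of that gene.

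Across the 10 genes, peaks at the start came in the WT list alone at *Wnt2*, *Wnt11*, *Axin2* and *Fzd7* and in the DKO list alone at *Wnt3*, against 4.71% and 17.4% of all protein-coding genes. At *Wnt2*, *Axin2* and *Fzd7* in WT, and at *Wnt3* and *Lef1* in DKO, a window reached over the start site. The 250 bp to each side of the start held from 13 CpGs at *Dkk1* to 67 at *Wnt11*, against a median of 24 over all protein-coding genes. The 150 bases before the start of the genes whose start lay in a window are printed from mm9, 5′ to 3′ on the strand of the gene, with CpGs in capitals, since these are the starts that a peak window covered. They held 9 CpGs at *Wnt2*, 13 at *Wnt3*, 21 at *Axin2*, 18 at *Lef1* and 11 at *Fzd7*, against a median of 6 over the promoters of all 22225 genes. None of them held WGATAA or CTTTGAW, which 8.81% and 3.74% of all such promoters do.
Wnt2 promoter, chr6:17980586-17980735, minus strand: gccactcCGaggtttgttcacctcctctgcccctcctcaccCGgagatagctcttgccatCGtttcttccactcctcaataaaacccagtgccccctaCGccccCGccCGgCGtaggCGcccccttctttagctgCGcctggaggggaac
Wnt3 promoter, chr11:103635314-103635463, plus strand: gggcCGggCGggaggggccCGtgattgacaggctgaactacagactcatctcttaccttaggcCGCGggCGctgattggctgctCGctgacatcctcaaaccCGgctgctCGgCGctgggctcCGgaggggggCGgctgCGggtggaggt
Axin2 promoter, chr11:108781513-108781662, plus strand: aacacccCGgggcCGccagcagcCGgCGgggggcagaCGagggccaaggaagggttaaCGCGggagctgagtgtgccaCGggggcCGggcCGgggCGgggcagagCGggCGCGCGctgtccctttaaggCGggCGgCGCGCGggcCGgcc
Lef1 promoter, chr3:130813239-130813388, plus strand: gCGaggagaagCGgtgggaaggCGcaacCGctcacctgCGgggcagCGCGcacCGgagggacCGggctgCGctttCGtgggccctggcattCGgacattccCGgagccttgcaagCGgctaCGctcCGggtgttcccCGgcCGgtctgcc
Fzd7 promoter, chr1:59538841-59538990, plus strand: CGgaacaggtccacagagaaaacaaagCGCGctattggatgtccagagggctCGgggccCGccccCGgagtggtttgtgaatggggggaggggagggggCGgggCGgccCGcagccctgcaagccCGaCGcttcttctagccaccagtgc

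The rest of the pathway was described by a list of 72 other genes in 7 classes, also chosen with earlier results of these data known. A WT peak lay within 5 kb of 47 of them, or 65.3%, against 39.4% of all protein-coding genes, and a DKO peak within 5 kb of 38, or 52.8%, against 49.1%. Both lists had one at 32 and neither at 19, or 44.4% and 26.4%, against 31.9% and 43.4% of all genes. Within 50 kb the counts were 62, or 86.1%, against 67.1%, and 56, or 77.8%, against 70.4%. The class counts that follow are within 5 kb and stand against 39.4% of all genes in WT and 49.1% in DKO. No count was adjusted for gene length. Of the 15 other ligands, WT had a peak within 5 kb of 8, or 53.3%, and DKO of 4, or 26.7%. The best-ranked were a WT peak in intron 1 of *Wnt7a*, with a height of 14.9 and no DKO counterpart, and a DKO peak in intron 3 of *Wnt7b*, with a height of 8.11 beside a WT peak of 10.8. For the secretion genes *Porcn* and *Wls*, WT had peaks at both and DKO at neither within 5 kb. The best, in intron 2 of *Wls*, had a height of 6.82.

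Of 14 receptors and co-receptors, WT had peaks at 10, or 71.4%, and DKO at 8, or 57.1%. The best were a WT peak 1777 bp upstream of *Fzd8*, with a height of 18.7, rank 449 and the nearest DKO peak 281298 bp away, and a DKO peak in intron 9 of *Ryk*, with a height of 10.2 beside 8.56 in WT. Of 8 other secreted inhibitors, WT had peaks at 3, or 37.5%, and DKO at 2, or 25%, both below the shares over all genes. At *Frzb*, a relative of the Sfrp genes, the best peaks of the lists lay 30 bp apart, at 921 and 891 bp upstream. The WT height was 22.6 (ES 3.74) and the DKO height 11.5 (ES 3.31). Among 9 genes of the R-spondin axis, which sets the number of Frizzled receptors on the cell, the counts were 6 in WT, or 66.7%, and 7 in DKO, or 77.8%. The best WT peak lay in intron 4 of *Lgr5*, with a height of 17.8 and no DKO counterpart, and the best DKO peak 3535 bp past the end of *Lgr4*, with a height of 15.1 beside 13.8 in WT.

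Of 15 intracellular components, WT and DKO each had peaks at 12, or 80%. The best peaks of both lists lay in intron 3 of *Tcf7l1*, a Tcf factor that acts mainly as a repressor, with a WT height of 12.2 and a DKO height of 10.8, 107 bp apart. The DKO peak nearest to the WT one was 23 bp away and had a height of 9.19. Of 9 direct targets in mesoderm, WT had peaks at 6, or 66.7%, and DKO at 5, or 55.6%. The best WT peak lay in the first exon of *Sp5*, 84 bp from the start, with a height of 15.8 (ES 2.54), 32 CpGs and 2 WGATAA, and a DKO peak 5 bp away had a height of 6.32. The best DKO peak lay 1772 bp upstream of *Ccnd1*, the cyclin D1 gene, with a height of 6.89 beside 6.29 in WT.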

How the data were processed

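Submitters' processing notes name CASAVA 1.8.1 and cutadapt and the build mm9. Peaks were called by the authors per library, without pooling. The deposited signal is the profile height in the Flk1(+) and ES libraries, the deposited ratio is the enrichment, peaks are ordered by the deposited −log10 q-value, and the rank, a deposited score, was used as given. No column names a library, so lists were assigned by peak number. Every window matched mm9 and was centered on its position. A peak with several gene rows was counted once. Genes came from GENCODE vM1 on mm9, with the longest entry per symbol, and introns and exons from the transcript with the longest coding sequence. With 1 library per condition no test was made. Members and gene lists were chosen with earlier results of these data known, and CTTTGAW was added after the data had been seen. All peaks of the members were named; sequences were taken for shared peaks with WGATAA within the central 61 bases, the best-ranked unshared peak of each list, and promoters under a peak window, and other pathway genes by the best peak of each class. Alternatives were other distances, a start-site anchor, stricter peaks, other sharing distances, WGATAR and a central window. Steps were tested on simulated data. Tools were samtools 1.23.1, pysam 0.24.0, Matplotlib 3.10.9, pandas 2.3.3 and, under Python 3.11.15, SciPy 1.17.1 with NumPy 2.4.6.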

Additional observations from a re-analysis of the deposited data

How the results depend on the processing

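Of 53 recomputed values, 38 stayed within 1.5 times the reported count or median (for the shorter window, the CpGs per base) or within the interval of the reported share, and 15 did not. The number of the 10 genes with a peak within 50 kb was among the former under each alternative run. The number of peaks near the genes fell from 61 in WT and 39 in DKO to 30 and 15 within 5 kb, 39 and 25 within 20 kb, 27 and 23 in the better-ranked 50% of each list, and 28 and 17 at an enrichment of at least 5, each a subset by construction; WT had more peaks than DKO under each of these. The shared WT percentage was 29.5 when positions had to lie within 100 bp, against 34.7 of all WT peaks. The shared DKO percentage was 74.4 within 1000 bp, against 49.3 of all DKO peaks. In the better-ranked 50%, WGATAA was present in 88.9% of WT and 73.9% of DKO windows, against 71.4% and 46.2% of all windows so ranked, and within 20 kb in 40% of DKO windows. The median CpGs in DKO were 21 within 20 kb. Within 100 bp to each side of the peak the median CpGs were 6 in DKO and 3 in WT, against 9 and 8 reported. Per base the median rose 1.66 times in DKO and was 0.935 times the reported value in WT. For all peaks of the lists it was 8 in DKO and 3 in WT within 100 bp, against 21 and 8 in the full windows. The cause of the shifts in shares and in the 20 kb median was not tested. No paired analysis was possible because each condition has 1 library. The lists hold no height for a library where no peak was called, so signal below the calling threshold cannot be read from them, and since the lists give no depth, heights and peak numbers were compared between lists without adjustment for it.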
